A study of Mus musculus with 12 samples.

Results

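The 38 genes described here encode collagen chains, the subunits of the most abundant structural proteins of the extracellular matrix. They were chosen by symbol, as the rows of the count table whose name is Col, a number, the letter a and a number, and kept where at least 3 of the 12 libraries held 10 counts or more. The table of 23420 genes held 44 such symbols, and 38 were kept: 10 fibrillar chains, 8 chains of basement membranes, 7 FACIT chains (fibril-associated collagens with interrupted helices) and 13 others. All 38 also passed the filter of the test. One of them, Col10a1, reached 10 counts only in transgenic libraries, so its kept status rests on the group in which it was high. The 6 symbols left out were Col2a1, Col6a6, Col9a1, Col17a1, Col19a1 and Col26a1, none of which exceeded 13 counts in any library.

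RNA came from bulk pylorus, the muscular outlet of the stomach, of C57BL/6 mice that were either wild-type or carried the CEA424-SV40 T Ag transgene. The transgene puts the SV40 large T antigen, a viral oncoprotein that blocks p53 and the retinoblastoma proteins, under a carcinoembryonic antigen promoter, and the mice serve as a model of gastric cancer. Both genotypes were sampled at D60 and at D80 (60 and 80 days old), and each of the 4 groups had 3 libraries. The labels name no treatment and do not say that libraries came from separate animals, so p-values measure the spread between libraries.

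A collagen molecule is a trimer of chains that wind around each other wherever glycine recurs at a regular step, and each chain is made as a precursor that is hydroxylated and folded in the endoplasmic reticulum. Fibrillar chains (types I, III, V, XI, XXIV and XXVII) assemble into the banded fibrils of the submucosa, type IV chains form the sheet-like network under epithelium and around muscle cells and vessels, and FACIT chains decorate the surface of fibrils. In the gut wall fibroblasts make most fibrillar collagen, while smooth muscle, endothelium and epithelium contribute to basement membranes.

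Total counts ran from 20121600 to 27633715 per library, and collagen genes took 0.130% to 0.905% of them. Levels are CPM, counts per 1000000 after scaling of the library totals with TMM factors (a trimmed mean of log ratios), given as mean ± SD over 3 libraries, and differences are log2 fold changes with their standard error (SE) from the edgeR quasi-likelihood test, with Benjamini-Hochberg adjustment over all 15369 genes tested and a threshold of 0.05. A gene is called higher or lower only when its adjusted p is under that threshold. Sex transcripts did not match across groups: the D60 wild-type libraries held 1666 to 2080 counts of 4 Y-linked genes and at most 1 count of Xist, the D80 wild-type and D60 transgenic libraries held Xist and 0 Y-linked counts, and of the D80 transgenic libraries replicate 1 held 2401 Y-linked counts and 0 of Xist, while replicates 2 and 3 held Xist, with 13 and 0 Y-linked counts. Genotype at D60, and age in wild-type mice, therefore coincide with sex in these libraries and cannot be told apart from it. The interaction of genotype and age subtracts the D60 genotype difference and carries the same overlap with sex. Libraries also differed in neighbouring tissue. Markers of duodenal enterocytes summed to 11061 CPM in D80 wild-type replicate 3, against 574 and 2606 in the rest of its group, and D80 transgenic replicate 1 held 4109 summed CPM of pancreatic acinar markers, against 824 and 972.

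Summed collagen transcripts overlapped between the genotypes at D60 and were highest in D80 transgenic pylorus. The sum over the 38 genes was 2057 ± 381 CPM in D60 wild-type, 2933 ± 462 in D80 wild-type, 2636 ± 987 in D60 transgenic and 6611 ± 384 in D80 transgenic libraries. The D60 groups overlapped, at 1618 to 2302 and 1693 to 3662 CPM. The D80 groups did not, at 2544 to 3443 and 6204 to 6966 CPM. Fibrillar chains made up 49.9% ± 2.05 of the collagen CPM in D60 wild-type, 54.0% ± 1.36 in D80 wild-type, 55.8% ± 2.15 in D60 transgenic and 63.8% ± 2.30 in D80 transgenic libraries. The share of the other chains, type VI among them, was 14.9% ± 1.85 in D80 wild-type and 7.69% ± 1.56 in D80 transgenic libraries. FACIT chains made up 3.21% to 4.55% of collagen CPM over the 12 libraries. No p is given for a sum, as the genes in it were chosen with results known.

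**Figure D1:**
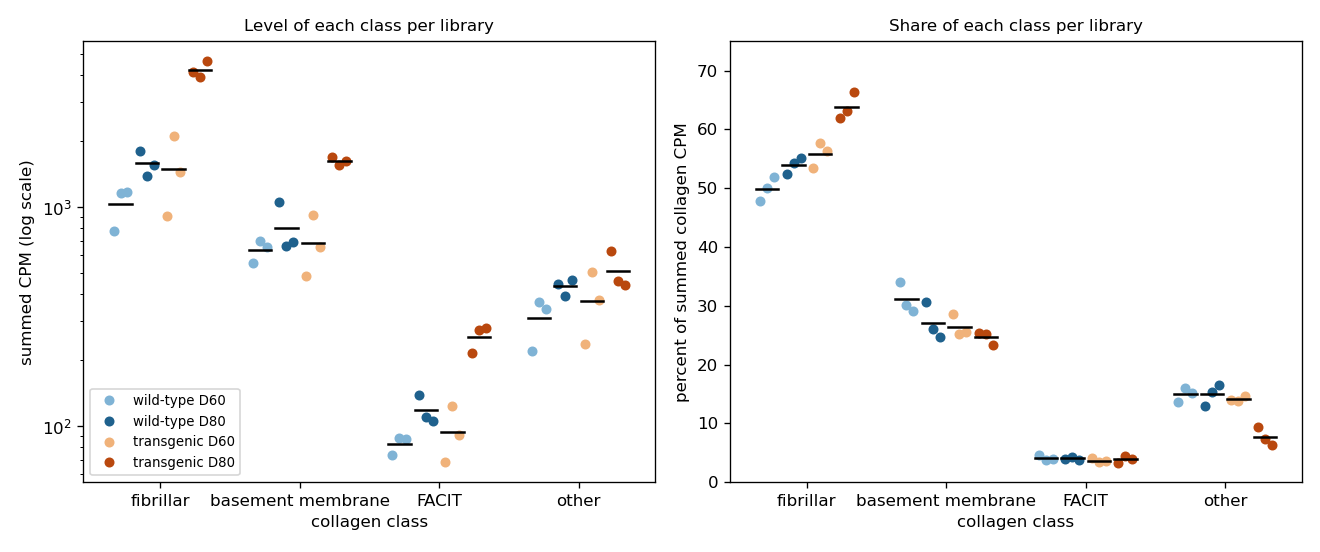
Summed CPM of each collagen class in each library (left, log axis) and its share of the summed collagen CPM (right, percent), by group; points are the 3 libraries of a group and black lines their mean. The D80 transgenic libraries lie highest for fibrillar, basement membrane and FACIT chains, and lowest in share for the other chains, at 6.30% to 9.38%.

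Compared per length, type III collagen led in every group. Counts per kilobase of merged exons and per 1000000 scaled counts (FPKM) of Col3a1 were 51.3 ± 10.9 in D60 wild-type, 78.2 ± 9.42 in D80 wild-type, 74.1 ± 30.8 in D60 transgenic and 194 ± 23.3 in D80 transgenic libraries. In D60 wild-type pylorus Col4a1 (35.3 ± 2.68 FPKM), Col4a2 (31.4 ± 1.96), Col1a1 (24.2 ± 5.25), Col6a1 (21.4 ± 5.47), Col1a2 (15.0 ± 3.20) and Col18a1 (14.9 ± 4.81) followed, of which Col4a1 and Col4a2 did not overlap with Col1a1 while Col1a2 and Col18a1 did overlap with each other. In D80 transgenic pylorus the order after Col3a1 was Col1a1 (146 ± 10.4 FPKM), Col4a1 (92.2 ± 3.05), Col1a2 (69.4 ± 4.90), Col4a2 (61.8 ± 1.48), Col18a1 (59.6 ± 7.35) and Col6a1 (31.0 ± 7.74). The range of Col18a1 overlapped those of both Col1a2 and Col4a2 there, while Col1a2 and Col4a2 did not overlap. These places depend on the length used, which joins every annotated exon of a gene and may exceed the transcripts present. It was 12426 bases for Col1a2 and 6563 for Col1a1, whose D80 transgenic levels before division by length were 863 and 960 CPM. At the low end, Col10a1 was last of the 38 in both wild-type groups and was at 5.001 ± 1.51 FPKM, in place 20, in D80 transgenic libraries.

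In the D60 groups and in D80 wild-type libraries, many collagen genes were high or low in the same library. In D60 transgenic libraries replicate 2 held the highest CPM of its group for 30 of 38 genes and replicate 1 the lowest for 32, and in D60 wild-type libraries replicate 1 was lowest for 34. In D80 wild-type libraries replicate 1 was highest for 24 and replicate 2 lowest for 24, while in D80 transgenic libraries no replicate was highest for more than 17 genes or lowest for more than 15. How often other genes share such an order was not tested. The fibroblast marker list, 10 genes all detected in every group, was at 716 summed CPM in D60 transgenic replicate 2 and 298 in replicate 1, and at 271 in D60 wild-type replicate 1 against 489 and 526 in the other D60 wild-type libraries. Smooth muscle markers were at 13964 and 6893 in D60 transgenic replicates 2 and 1. The part of these marker levels in the collagen values was not tested. The heat map over the 12 libraries shows these shared columns.

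**Figure D2:**
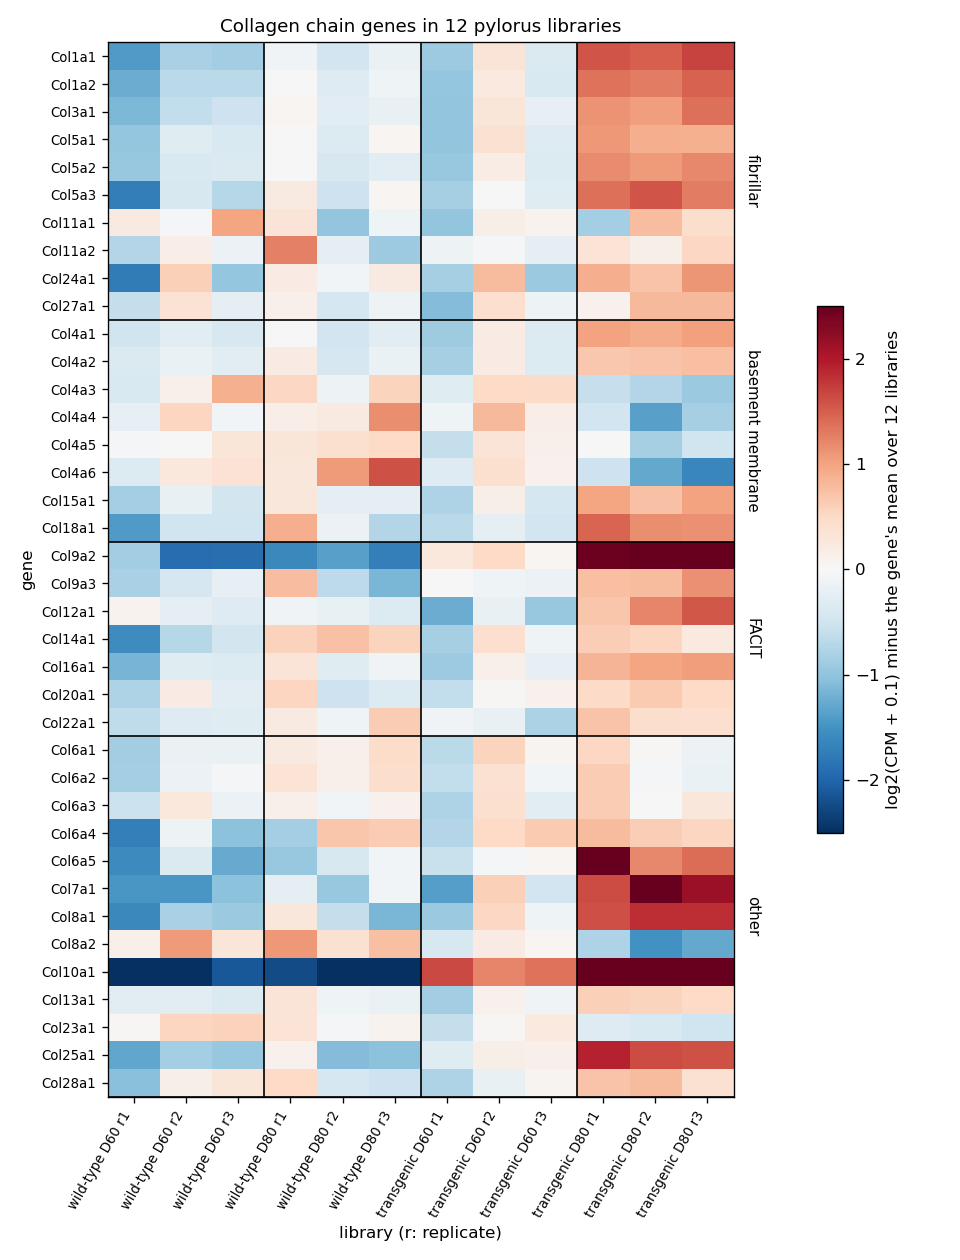
Level of each of the 38 genes (rows, by class) in each of the 12 libraries (columns, by group), as log2(CPM + 0.1) minus the gene's mean over the libraries; red is above and blue below the mean, and values beyond 2.5 take the end colours. Type I, III and V chains are red in the 3 D80 transgenic libraries, and Col4a3, Col4a4, Col4a6 and Col8a2 are blue there. Col4a5 is blue in D80 transgenic replicates 2 and 3 and close to its mean in replicate 1.

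The comparison of genotypes at D60 asks which collagen genes already differed at the younger age. Only Col9a2 and Col10a1 passed the test, both higher in transgenic pylorus, and no collagen gene was lower. That is 2 of 38 genes, 5.26%, against 3.66% of all genes tested called higher and 0.241% called lower. Without Col10a1, kept only through its transgenic counts, it is 1 of 37, so the count is no more than that background. Without regard to adjustment, 9 collagen genes had p under 0.05, 8 higher and 1 lower, against 14.7% of all genes. The median log2 fold change was 0.25 over the 38 genes and -0.00 over all genes tested, and over the 38 it dropped to 0.04 when D60 wild-type replicate 1 was left out and to -0.01 when D60 transgenic replicate 2 was. In this comparison all 10 fibrillar and all 8 basement membrane genes missed the threshold.

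Col9a2 encodes a chain of type IX collagen, a FACIT collagen best known from cartilage (GRCm38 chromosome 4, 121039385 to 121055322). Col9a2 stood at 3.396, 1.60 and 1.62 CPM in D60 wild-type, 1.99, 2.38 and 1.86 in D80 wild-type, 7.52, 8.96 and 6.51 in D60 transgenic and 34.6, 62.6 and 43.7 in D80 transgenic libraries. Every D60 transgenic library lay above every wild-type library. The difference was a log2 fold change of 1.82 (SE 0.31, adjusted p = 0.0046).

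Col10a1 encodes the chain of type X collagen, known from hypertrophic cartilage (chromosome 10, 34389981 to 34397085). Col10a1 stood at 0, 0 and 0.0952 CPM in D60 wild-type, 0.0813, 0 and 0 in D80 wild-type, 2.56, 1.88 and 2.09 in D60 transgenic and 14.6, 20.8 and 11.5 in D80 transgenic libraries. Each wild-type group held 2 counts in all. The D60 transgenic libraries held 157 counts against those 2, a ratio of 63.6 per scaled count with a 95% Clopper-Pearson interval of 17.3 to 530.1 that covers counting error only. Since Col10a1 entered the 38 only through its transgenic counts, its genotype differences are given as a description, without a p. Its exons share 18 bases with the antisense gene Nt5dc1, 0.575% of their length.

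Among the D60 genes that were not called, Col25a1 and Col9a3 had groups that did not overlap. The share of all genes without overlap at D60 was not counted, so this is a description only. Col25a1 stood at 1.23, 1.74 and 1.62 CPM in D60 wild-type, 3.45, 1.46 and 1.52 in D80 wild-type, 2.56, 3.54 and 3.53 in D60 transgenic and 12.5, 10.1 and 9.89 in D80 transgenic libraries. The gene encodes a transmembrane collagen known from neurons, and its D60 difference of 1.06 (SE 0.33, adjusted p = 0.13) missed the threshold, though DESeq2 called it (adjusted p = 0.040), as did edgeR once D80 wild-type replicate 1 was left out (adjusted p = 0.020). For Col1a1 the D60 difference was 0.78 (SE 0.27, adjusted p = 0.18), with overlapping groups, and it was called without transgenic D60 replicate 1 (adjusted p = 0.034). For Col4a1 the 95% interval of the D60 log2 difference was -0.37 to 0.62, and for Col6a3 it was -0.64 to 0.57.

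At D80 the collagen genes differed in direction between types and also within some types. All of the chains of types I, III and V were higher in transgenic pylorus, Col4a1 and Col4a2 were higher while Col4a3, Col4a4, Col4a5 and Col4a6 were lower, and the type VI chains Col6a1, Col6a2 and Col6a3 were not called. In all, 18 of 38 genes were higher and 5 lower, that is 47.4% and 13.2%, against 19.4% and 22.0% of all genes tested (41.3% in either direction). The median log2 fold change was 0.85 over the 38 genes and -0.07 over all genes. Without Col10a1, kept only through its transgenic counts, 17 of 37 were higher and 5 lower, with a median of 0.82. Without D80 transgenic replicate 1, which leaves Xist-expressing libraries in both D80 groups, 17 were higher and 4 lower. Without that library and D80 wild-type replicate 3 together, 13 were higher and 4 lower. The shares of all genes called in those smaller fits are not given here.

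**Figure D3:**
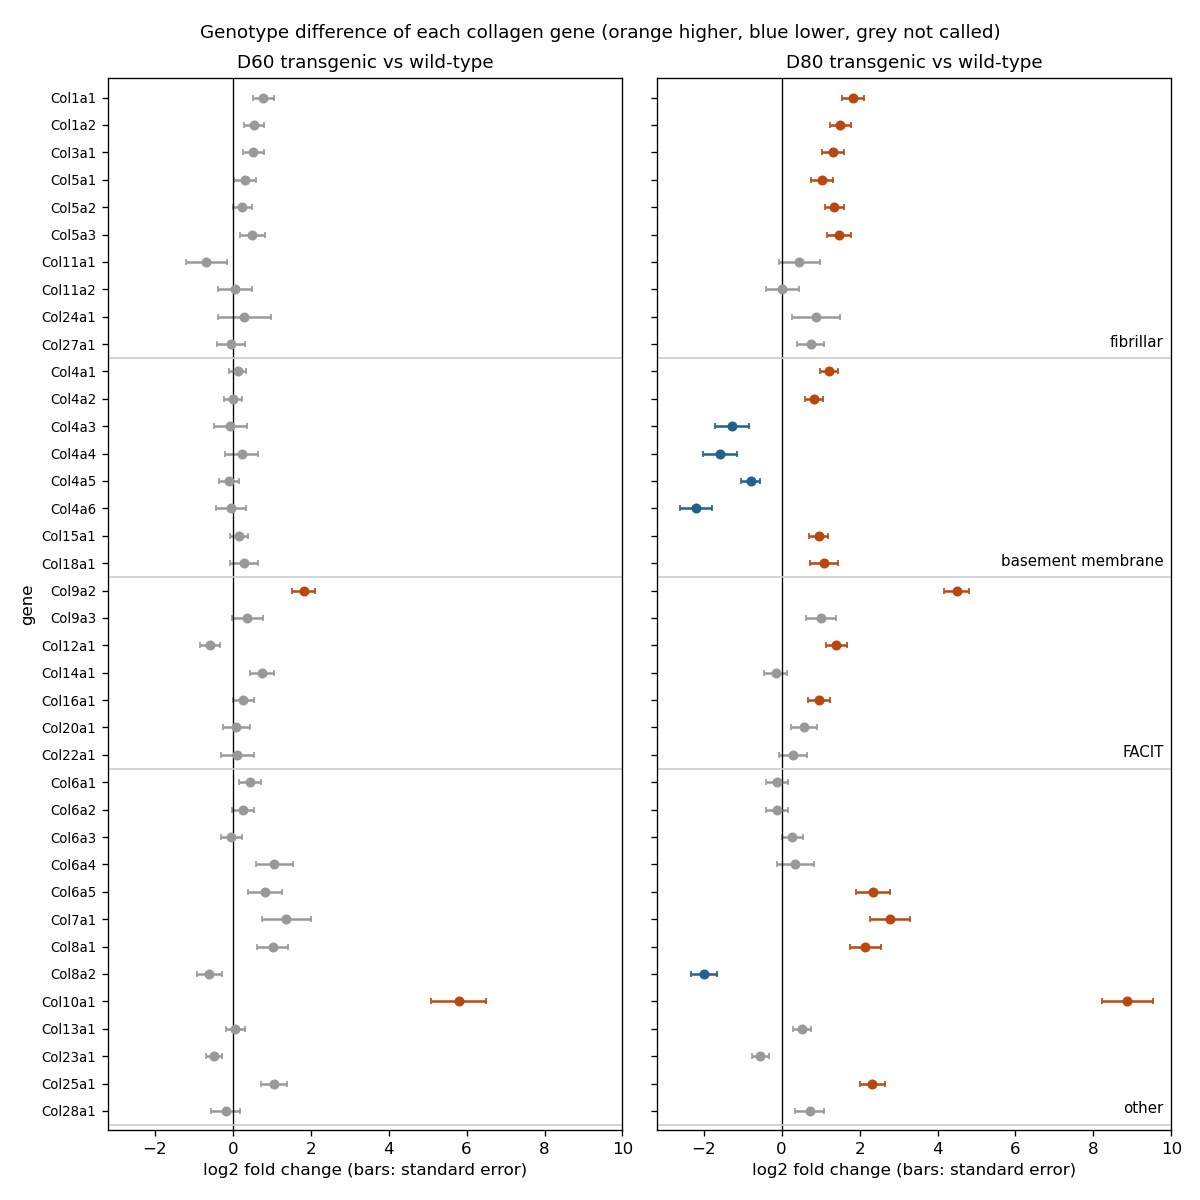
Log2 fold change of each of the 38 genes between transgenic and wild-type libraries at D60 (left) and D80 (right), with bars of 1 standard error; orange is called higher, blue called lower and grey not called by the edgeR quasi-likelihood test at an adjusted p of 0.05. At D60 only Col9a2 and Col10a1 are coloured, and at D80 there are 18 orange and 5 blue genes. The Col10a1 point rests on 2 wild-type counts per age.

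Bulk RNA gives the level per sample, so that more or fewer cells of a type and more or less RNA per cell cannot be told apart in any of these differences. At D80 the smooth muscle markers, 10 genes all detected, summed to 11069 to 18002 CPM in wild-type and 2695 to 2837 in transgenic libraries, and 6 epithelial markers to 10760.5 to 16111 and 4676 to 7192. Fibroblast markers overlapped in sum, at 490.98 to 607 in wild-type and 468 to 517 in transgenic libraries. Singly they ranged from -0.89 to 1.89 on the log2 scale, with 2 of 10 called higher and 0 lower. Of all genes tested 19.4% were called higher and 22.0% lower. Endothelial markers (8 genes, all detected) were at 143 to 228 and 272 to 318 CPM, and macrophage markers (7 genes) at 80.0 to 128 and 242 to 317. Pericyte markers (5 genes) summed to 311 to 442 and 190.0 to 247 CPM, with 1 gene called higher and 2 lower, from -1.64 to 1.94 on the log2 scale. Neuroendocrine markers (8 genes) were at 487 to 526 in D80 wild-type, 4278 to 5845 in D60 transgenic and 24736 to 37084 in D80 transgenic libraries. How far these levels account for the collagen differences was not tested.

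Fibrillar chains: 6 of 10 were higher at D80 and none lower, with a median log2 fold change of 1.18. Col1a1 and Col1a2 encode the chains of type I collagen, the main fibril of the submucosa. Col1a1 stood at 119, 182 and 175 CPM in D60 wild-type, 300.01, 227 and 284 in D80 wild-type, 171, 397 and 249 in D60 transgenic and 944, 901 and 1034 in D80 transgenic libraries. The D80 transgenic libraries stood apart from the other 9, and the D80 difference was 1.83 (SE 0.27, adjusted p = 0.00041). Col1a2 stood at 140.0, 208 and 209.7 CPM in D60 wild-type, 336, 266 and 309 in D80 wild-type, 169.7, 393 and 255 in D60 transgenic and 858, 804 and 926 in D80 transgenic libraries. Col1a2 differed by 1.51 (SE 0.27, adjusted p = 0.0012) at D80, again with no overlap.

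Col3a1 encodes type III collagen, the chain of the fine reticular fibres (chromosome 1, 45311538 to 45349706). Col3a1 stood at 382, 545 and 584 CPM in D60 wild-type, 871, 693 and 738 in D80 wild-type, 424, 1029 and 729 in D60 transgenic and 1826, 1728 and 2165 in D80 transgenic libraries. All D80 transgenic libraries were above every other library, and the D80 difference was 1.31 (SE 0.28, adjusted p = 0.0037). Type V chains co-assemble with type I and set the width of its fibrils. Col5a1 stood at 43.5, 69.2 and 65.0 CPM in D60 wild-type, 85.7, 67.3 and 87.7 in D80 wild-type, 43.0, 111 and 68.4 in D60 transgenic and 180.3, 159.8 and 157 in D80 transgenic libraries. Col5a2 stood at 51.1, 76.0 and 77.1 CPM in D60 wild-type, 99.9, 75.2 and 82.6 in D80 wild-type, 51.4, 112 and 77.9 in D60 transgenic and 224, 206 and 228 in D80 transgenic libraries. Col5a3 stood at 4.14, 10.6 and 8.52 CPM in D60 wild-type, 16.4, 9.75 and 14.6 in D80 wild-type, 7.81, 14.0 and 11.4 in D60 transgenic and 36.6, 42.1 and 34.4 in D80 transgenic libraries. In each of these genes the D80 groups were separate, with differences of 1.05 (SE 0.28, adjusted p = 0.012) for Col5a1, 1.35 (SE 0.25, adjusted p = 0.0015) for Col5a2 and 1.47 (SE 0.31, adjusted p = 0.0034) for Col5a3. The Col5a1 call was lost without D80 transgenic replicate 1 and D80 wild-type replicate 3 together (adjusted p = 0.053).

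The remaining fibrillar chains were not called at D80. Col11a1 and Col11a2, chains of the cartilage fibril type XI, differed by 0.46 (SE 0.52, adjusted p = 0.51) and 0.02 (SE 0.42, adjusted p = 0.97), and the minor fibrillar chains Col24a1 and Col27a1 by 0.87 (SE 0.62, adjusted p = 0.28) and 0.74 (SE 0.35, adjusted p = 0.11). Col11a2 was at 75.3 CPM in D80 wild-type replicate 1 and 26.8 and 16.8 CPM in replicates 2 and 3, against 35.2 to 45.4 CPM in D80 transgenic libraries. Without that replicate 1 it was called higher, with a log2 fold change of 0.88 (edgeR quasi-likelihood test, adjusted p = 0.014).

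The ratio between the chains of type I collagen was higher in transgenic libraries, with a test too small to pass the threshold. Within a library the ratio of Col1a1 to Col1a2 counts was 0.889 ± 0.0328 in D80 wild-type and 1.11 ± 0.0101 in D80 transgenic libraries, and 0.853 ± 0.0181 and 0.997 ± 0.0177 at D60, without overlap at either age. Such a ratio does not depend on the scaling of the libraries, and gene length cancels when groups are compared. The ratio of Col3a1 to Col1a1 was 2.85 ± 0.229 in D80 wild-type and 1.98 ± 0.0968 in D80 transgenic libraries. Each ratio was compared with a two-sided exact permutation test over 3 against 3 libraries, which cannot go below p = 0.1, so that none of the 16 ratio comparisons could pass the threshold (raw p = 0.1 and adjusted p = 0.133 for those without overlap).

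**Figure D4:**
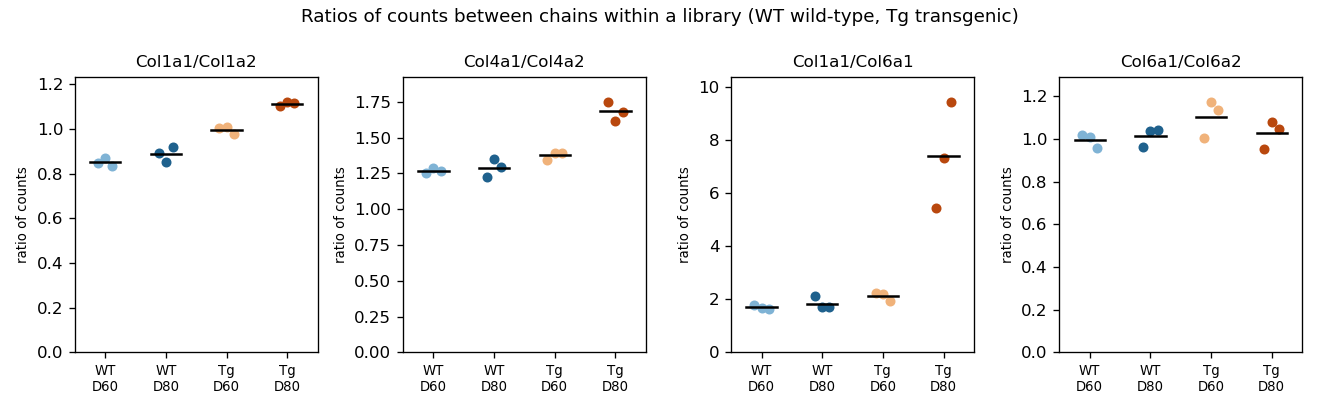
Ratio of counts between pairs of chains within each library, by group (vertical axes start at 0); points are libraries and lines group means. Col1a1/Col1a2, Col4a1/Col4a2 and Col1a1/Col6a1 lie higher in D80 transgenic than in D80 wild-type libraries without overlap, while Col6a1/Col6a2 overlaps, at 0.952 to 1.08 in D80 transgenic and 0.962 to 1.04 in D80 wild-type libraries.

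Basement membrane chains moved in both directions: 4 of 8 were higher and 4 lower at D80, with a median of 0.01. Type IV genes lie in 3 head-to-head pairs, and in GRCm38 the first bases of Col4a1 and Col4a2 are 21 bases apart on chromosome 8, those of Col4a3 and Col4a4 72 apart on chromosome 1, and those of Col4a5 and Col4a6 1309 apart on chromosome X. In each pair both genes had the same direction at D80. Col4a1 and Col4a2 encode the network found in nearly all basement membranes. Col4a1 stood at 245, 285 and 262 CPM in D60 wild-type, 351, 249 and 287 in D80 wild-type, 189, 401 and 273 in D60 transgenic and 698, 662 and 704 in D80 transgenic libraries. Col4a2 stood at 195, 221 and 207 CPM in D60 wild-type, 287, 185 and 222 in D80 wild-type, 141, 288 and 196 in D60 transgenic and 399, 409 and 419 in D80 transgenic libraries. Every D80 transgenic library was above every other library for both, with D80 differences of 1.22 (SE 0.23, adjusted p = 0.0018) for Col4a1 and 0.82 (SE 0.23, adjusted p = 0.014) for Col4a2. The Col4a2 call was lost without D80 wild-type replicate 2 (adjusted p = 0.057) and without the pair of libraries set apart (adjusted p = 0.063). The ratio of Col4a1 to Col4a2 counts was 1.29 ± 0.0623 in D80 wild-type and 1.68 ± 0.0641 in D80 transgenic libraries.

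Col4a5 and Col4a6 encode chains of the network around smooth muscle and under some epithelia. Col4a6 stood at 2.65, 4.10 and 4.38 CPM in D60 wild-type, 4.14, 7.19 and 10.3 in D80 wild-type, 2.68, 4.46 and 3.66 in D60 transgenic and 2.34, 1.33 and 1.02 in D80 transgenic libraries. Wild-type D80 libraries were above transgenic ones, and Col4a6 differed by -2.20 (SE 0.40, adjusted p = 0.0014) at D80. Col4a5 stood at 14.2, 14.6 and 17.9 CPM in D60 wild-type, 17.8, 19.1 and 20.5 in D80 wild-type, 9.60, 18.3 and 15.9 in D60 transgenic and 14.5, 8.19 and 10.3 in D80 transgenic libraries. Its D80 difference was -0.80 (SE 0.25, adjusted p = 0.023). Col4a3 and Col4a4, chains best known from the kidney filter, were near the detection limit, at 0.310 to 1.33 and 0.332 to 2.38 CPM over all libraries. Their D80 differences were -1.27 (SE 0.43, adjusted p = 0.035) for Col4a3 and -1.58 (SE 0.43, adjusted p = 0.013) for Col4a4. The count of lower collagen genes depended on single libraries and on scaling: the Col4a4 call was lost when either D80 wild-type replicate 3 or transgenic replicate 2 of that age was dropped, the Col4a5 call without D80 wild-type replicates 2 or 3 or D80 transgenic replicates 2 or 3, and the Col4a3 call without any of 6 libraries, D80 wild-type replicates 1 and 3, D60 transgenic replicate 2 and each of the 3 D80 transgenic libraries. With library totals in place of TMM factors Col4a3, Col4a4 and Col4a5 were not called, with upper-quartile factors Col4a3 and Col4a5 were not, while Col4a6 was called in all 22 alternatives, at -2.62 to -1.76. Smooth muscle markers were lower in the same D80 libraries, as given above, and their part was not tested.

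Col15a1 and Col18a1 encode collagens with heparan sulfate or chondroitin sulfate chains that border the basement membrane, and Col18a1 is the source of endostatin. Col15a1 stood at 28.1, 44.6 and 37.0 CPM in D60 wild-type, 61.8, 43.3 and 43.3 in D80 wild-type, 29.6, 55.9 and 37.3 in D60 transgenic and 100.1, 84.6 and 101 in D80 transgenic libraries. Its difference at D80 was 0.95 (SE 0.24, adjusted p = 0.0085), lost without the pair of libraries set apart (adjusted p = 0.063). Col18a1 stood at 65.8, 124 and 125 CPM in D60 wild-type, 331, 158 and 106 in D80 wild-type, 109.8, 150.02 and 125 in D60 transgenic and 478, 392 and 386 in D80 transgenic libraries. D80 wild-type replicate 1 stood at more than the sum of the other 2 libraries of its group. Col18a1 was called at D80 with 1.08 (SE 0.36, adjusted p = 0.032), but the call was lost without D80 wild-type replicate 2 or 3, without any one of the D80 transgenic libraries, and when only the 2 groups were fitted, over a range of 0.66 to 1.66.

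**Figure D5:**
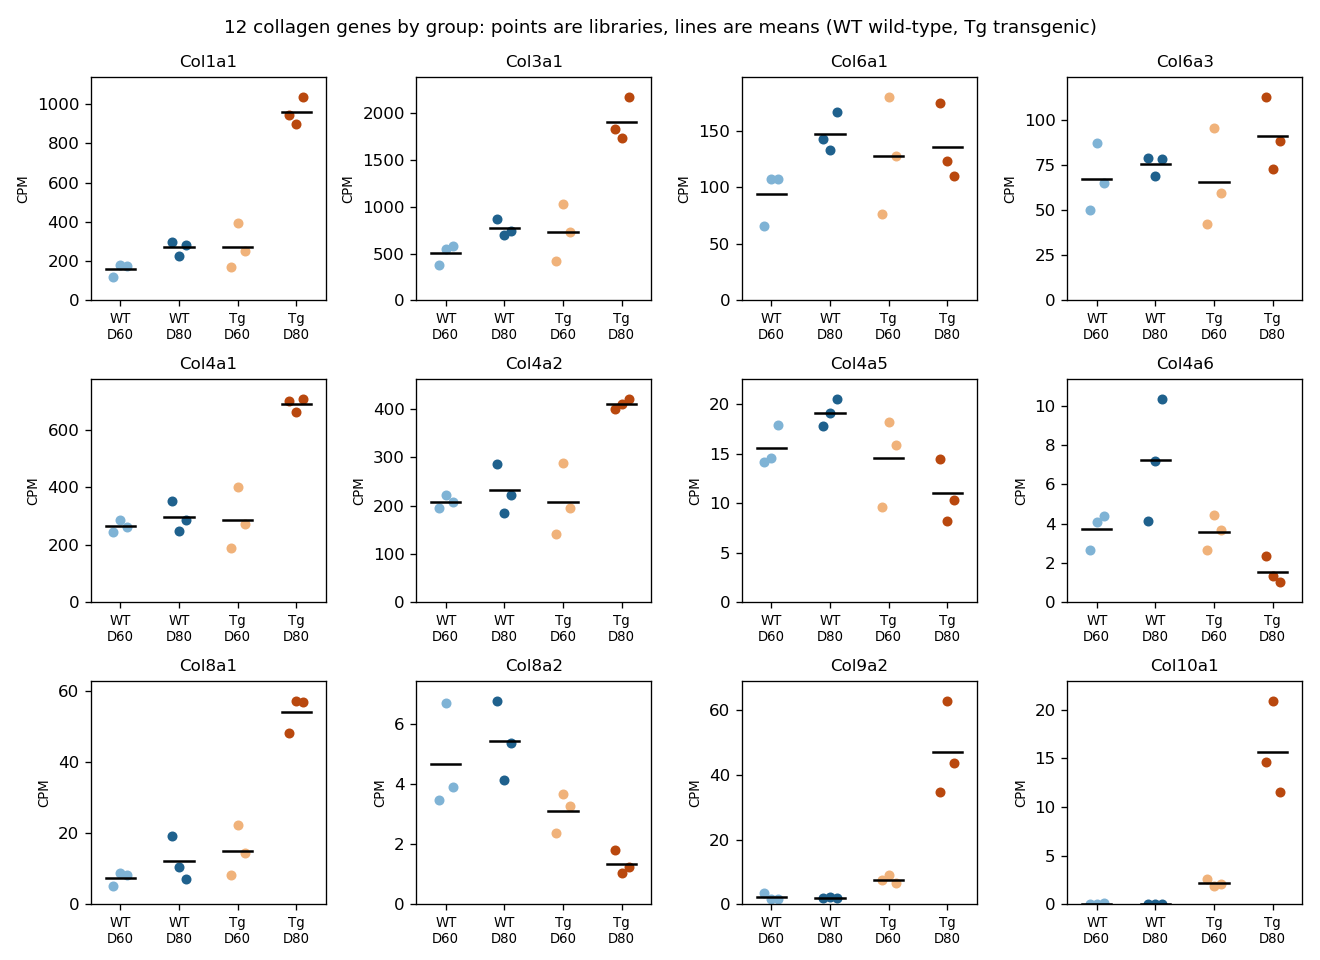
CPM of 12 collagen genes in each library, by group (each vertical axis starts at 0 and has its own scale); points are libraries and lines group means. Col1a1, Col3a1, Col4a1, Col4a2, Col8a1, Col9a2 and Col10a1 are higher in D80 transgenic than in all other libraries, Col4a5, Col4a6 and Col8a2 are lower there than in D80 wild-type libraries, and Col6a1 and Col6a3 overlap between genotypes.

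Of the 7 FACIT chains, 3 were higher at D80 and none lower, with a median of 0.96. Col9a2, already called at D60, differed by 4.49 (SE 0.32, adjusted p = 1.9e-06) at D80. Its partner Col9a3 differed by 1.01 (SE 0.39, adjusted p = 0.056), with groups overlapping through D80 wild-type replicate 1 at 20.3 CPM against 19.98 to 26.0 CPM in transgenic libraries, and it was called in 7 of 22 alternatives, among them the fit without that library, at 1.79 on the log2 scale (adjusted p = 0.00013). Col9a3 shares 234 exon bases with the antisense gene Tcfl5, 6.07% of its exons, and the strand setting of the counting is not given in the sources used here, so reads of the pair may not have been separated. Counts of Col9a2 over Col9a3 were 0.257 ± 0.138 in D80 wild-type and 2.16 ± 0.785 in D80 transgenic libraries. The third chain of type IX, Col9a1, held at most 12 counts in any library.

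Col12a1 encodes a long FACIT chain that links fibrils to their surroundings (chromosome 9, 79598991 to 79718831). Col12a1 stood at 38.7, 31.4 and 29.3 CPM in D60 wild-type, 34.5, 32.2 and 28.7 in D80 wild-type, 15.5, 32.0 and 18.9 in D60 transgenic and 58.9, 85.1 and 108 in D80 transgenic libraries. The mean was lowest in D60 transgenic libraries, whose replicate 2 lay within the wild-type range, and highest in D80 transgenic libraries. The D80 difference of Col12a1 was 1.40 (SE 0.27, adjusted p = 0.0019). Col16a1 encodes another fibril-surface chain. Col16a1 stood at 14.6, 26.7 and 25.8 CPM in D60 wild-type, 40.7, 26.7 and 30.9 in D80 wild-type, 17.3, 35.6 and 28.3 in D60 transgenic and 58.9, 64.6 and 67.8 in D80 transgenic libraries. It differed by 0.96 (SE 0.27, adjusted p = 0.015) at D80, a call that was lost without D80 wild-type replicate 2 (adjusted p = 0.060) and without the pair of libraries set apart (adjusted p = 0.059). Col14a1, which also sits on type I fibrils, was not called at D80, at -0.15 (SE 0.30, adjusted p = 0.71), and the 95% interval of that difference was -0.80 to 0.50. Col20a1 and Col22a1 were not called either.

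Type VI collagen forms beaded microfilaments around cells, and its 3 main chains were not called at D80. Col6a1 stood at 66.2, 108 and 108 CPM in D60 wild-type, 143, 133 and 167 in D80 wild-type, 76.4, 179 and 128 in D60 transgenic and 174, 123 and 109.9 in D80 transgenic libraries. D80 wild-type and transgenic libraries overlapped, and Col6a1 differed by -0.12 (SE 0.29, adjusted p = 0.77) with a 95% interval of -0.75 to 0.51. Col6a2 and Col6a3 had intervals of -0.74 to 0.50 and -0.33 to 0.88. The ratio of Col1a1 to Col6a1 counts was 1.84 ± 0.230 in D80 wild-type and 7.38 ± 1.996 in D80 transgenic libraries, ranging over 1.70 to 2.10 and 5.42 to 9.41. In the same order Col6a1 over Col6a2 was 1.01 ± 0.0449 and 1.03 ± 0.0662. Col6a3 over Col6a1 was 0.516 ± 0.0427 in D80 wild-type and 0.682 ± 0.111 in D80 transgenic libraries, without overlap. At D60 that ratio went the other way, at 0.725 ± 0.106 in wild-type and 0.518 ± 0.0452 in transgenic libraries. Of the minor type VI chains, Col6a5 was higher at D80. Col6a5 stood at 1.61, 3.91 and 2.05 CPM in D60 wild-type, 2.56, 3.79 and 4.81 in D80 wild-type, 3.42, 4.92 and 5.24 in D60 transgenic and 31.3, 11.73 and 13.4 in D80 transgenic libraries. Replicate 1 was the highest of its group, and the difference was 2.34 (SE 0.43, adjusted p = 0.0015), with 1.75 the smallest value over the alternatives. Col6a4 was not called, at 0.35 (SE 0.47, adjusted p = 0.58).

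Type VIII collagen, a short-chain collagen of vessel walls, had its chains called in opposite directions at D80. Col8a1 stood at 5.06, 8.90 and 8.19 CPM in D60 wild-type, 19.2, 10.4 and 7.02 in D80 wild-type, 8.26, 22.4 and 14.6 in D60 transgenic and 48.0, 57.0 and 57.0 in D80 transgenic libraries. Col8a2 stood at 3.46, 6.69 and 3.90 CPM in D60 wild-type, 6.75, 4.15 and 5.37 in D80 wild-type, 2.36, 3.67 and 3.28 in D60 transgenic and 1.80, 1.03 and 1.24 in D80 transgenic libraries. At D80 Col8a1 was 2.14 (SE 0.40, adjusted p = 0.0015) and Col8a2 -1.99 (SE 0.33, adjusted p = 0.00081), and both kept their call in all 22 alternatives. Neither was called at D60. As these chains differ in direction, the 150 bases before the RefSeq start of each are shown (GRCm38.p6, 5′ to 3′ on the gene's strand, Col8a1 at chr16:57754738-57754887 on the minus strand and Col8a2 at chr4:126286644-126286793 on the plus strand), followed by those of Col10a1 (chr10:34389831-34389980, plus strand), nearly silent in wild-type pylorus. Capitals mark TATAAA, or GGGCGG on either strand.
Col8a1: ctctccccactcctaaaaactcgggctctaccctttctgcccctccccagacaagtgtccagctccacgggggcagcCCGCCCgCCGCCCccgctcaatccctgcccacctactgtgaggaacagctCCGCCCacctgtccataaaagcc
Col8a2: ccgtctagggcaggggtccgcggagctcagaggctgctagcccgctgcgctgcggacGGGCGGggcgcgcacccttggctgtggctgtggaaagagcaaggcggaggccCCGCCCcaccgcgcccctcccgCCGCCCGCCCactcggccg
Col10a1: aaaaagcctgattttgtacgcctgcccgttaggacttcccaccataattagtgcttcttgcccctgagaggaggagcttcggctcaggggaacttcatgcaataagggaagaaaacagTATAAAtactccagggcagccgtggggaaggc
The Col8a1 window held 3 matches to GGGCGG and the Col8a2 window 4, of which the pair nearest the start overlap, while the Col10a1 window held none of these and 1 TATAAA beginning 32 bases before the start. RefSeq promoters matched 31 of the 38 genes, with 33 windows. A gene is counted here when any of its windows held the match, while the percentages count single windows. GGGCGG was found in 18 of the 31 and in 28.6% of 32851 mouse promoter windows of the same length, CCAAT in 6 and in 24.5%, and TATAAA in 3 (Col3a1, Col10a1 and Col11a2) and in 7.57%, each searched on both strands. A match describes letters only.

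The other chains outside these classes were mixed. Col7a1 encodes the anchoring fibril chain beneath stratified epithelia and was at 2.34 to 4.87 CPM in D80 transgenic against 0.309 to 0.650 CPM in D80 wild-type libraries, a difference of 2.78 (SE 0.52, adjusted p = 0.0016). The squamous forestomach markers, 7 genes, summed to 4.998 to 10.7 CPM in D80 wild-type and 6.60 to 12.1 CPM in D80 transgenic libraries. Of these, 3 were tested and 2 were called higher at D80, Ivl and Krt14 (named after their values were seen). The third was not called, at -0.63, and the median over the 3 was 2.001. Ivl was also called higher at D60, and by age in transgenic mice 1 of the 3 was called higher and 1 lower. Their part in the Col7a1 difference was not tested. Col25a1 differed by 2.33 (SE 0.32, adjusted p = 0.00024) at D80, and all 3 transgenic libraries were above all others. Col10a1 reached 1423 counts over the D80 transgenic libraries against 2 in the wild-type ones, a ratio of 540.1 with a 95% Clopper-Pearson interval of 149 to 4464. The transmembrane chains Col13a1 and Col23a1 were not called, at 0.53 (SE 0.24, adjusted p = 0.097) and -0.55 (SE 0.21, adjusted p = 0.059), nor was Col28a1. Col17a1, a transmembrane chain of hemidesmosomes, was at 0.0406 to 0.479 CPM over the 12 libraries and was not tested.

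Col9a2 and Col10a1 are cartilage collagens by reputation, so the chondrocyte list is given beside them. Its 7 genes summed to 74.1 to 362 CPM in D80 wild-type and 121 to 177 CPM in D80 transgenic libraries, with overlap, and Chad alone made up most of this, at 72.8 to 361 and 119 to 176 CPM. Acan, the cartilage proteoglycan, was detected in the D60 wild-type group, at 0 in D80 wild-type and D60 transgenic libraries and at 0.210 to 0.496 CPM in D80 transgenic ones. Matn1 had 1 count in all 12 libraries. Of the 7 genes 3 were tested at D80 and 0 called, against 41.3% of all genes, with a median log2 fold change of -0.11. Col2a1, the defining cartilage fibril chain, held at most 5 counts in any library. Neuroendocrine markers were higher in the same groups as Col9a2 and Col10a1, as given above, and their part in the result was not tested.

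The age comparison within transgenic mice shares the D80 transgenic libraries with the D80 genotype comparison, so its values stand beside the former and are no second line of support. Between D60 and D80, 19 of 38 collagen genes rose and 3 fell (50% and 7.89%), against 17.7% and 18.0% of all genes tested (35.7% in either direction), with a median of 1.002 against 0.02. Without Col10a1 it was 18 of 37 that rose, with a median of 0.99. The 18 genes higher in transgenic than in wild-type pylorus at D80 all rose with age, and so did Col13a1, at 0.79 (SE 0.24, adjusted p = 0.024), a call lost without D60 transgenic replicate 1 or D80 transgenic replicate 1 or 2. The 3 that fell were Col4a4, Col4a6 and Col8a2, at -1.32 (SE 0.43, adjusted p = 0.034) for Col4a4, -1.20 (SE 0.40, adjusted p = 0.035) for Col4a6 and -1.18 (SE 0.33, adjusted p = 0.017) for Col8a2. Type I collagen rose by 1.82 (SE 0.27) for Col1a1 and 1.66 (SE 0.27) for Col1a2 on the log2 scale, Col12a1 by 1.92 (SE 0.27) and Col9a2 by 2.61 (SE 0.29). The lower calls were sensitive to the libraries, and none was left without D60 transgenic replicate 2 or 3 or without D80 transgenic replicate 2 or 3.

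In wild-type mice no collagen gene passed the test between D60 and D80, nor did any of the 15369 genes (0%). At an unadjusted p under 0.05 there were 8 collagen genes, all higher at D80, and 12.5% of all genes, and DESeq2 called 164 genes higher and 90 lower, 1 collagen gene among them. That gene was Col14a1, named after its values were seen. Col14a1 stood at 7.59, 13.9 and 16.6 CPM in D60 wild-type, 34.0, 38.2 and 33.9 in D80 wild-type, 12.9, 30.5 and 21.4 in D60 transgenic and 35.2, 33.1 and 27.3 in D80 transgenic libraries. The D80 wild-type libraries were all above the D60 wild-type ones, and its difference was 1.47 (SE 0.31, adjusted p = 0.28). Leaving out D80 wild-type replicate 1 brought it past the threshold in edgeR too (adjusted p = 0.041). The median over the 38 genes was 0.46, against 0.04 over all genes.

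The interaction asks whether the genotype difference itself changed with age, and as its D60 part sets libraries with Y-linked counts against libraries with Xist, sex cannot be told apart from it. It was called for 3 of 38 collagen genes, 2 with a larger D80 difference and 1 with a lower one, against 2.77% and 2.23% of all genes tested. The genotype difference of Col9a2 was larger at D80 by 2.68 (SE 0.43, adjusted p = 0.0096) and that of Col12a1 by 1.98 (SE 0.38, adjusted p = 0.015) on the log2 scale. For Col4a6 it was -2.15 (SE 0.55, adjusted p = 0.047), called in 6 of 21 alternatives. The Col12a1 call was lost without D60 transgenic replicate 3 (adjusted p = 0.054). For the type I chains the interaction was 1.05 (SE 0.38, adjusted p = 0.12) for Col1a1 and 0.95 (SE 0.37, adjusted p = 0.15) for Col1a2, so that the difference between ages in their genotype effect was not called here. Without D80 wild-type replicate 1 the interaction was called higher for 8 genes, without D60 transgenic replicate 2 for 7, without D60 wild-type replicate 1 for 4, and without D60 transgenic replicate 3 for 1. The shares of all genes called in these fits are not given here, so the counts cannot be set against a background.

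Genes that act on collagen chains were followed through lists drawn up by function with earlier results of these data known. Each count below stands against 19.4% of all genes called higher and 22.0% lower at D80 (41.3% in either direction), and each median against -0.07. Among enzymes and chaperones of folding and modification, 7 of 19 were higher and 2 lower at D80, with a median of 0.44, and the 9 called either way are a share near that of all genes. The prolyl hydroxylase P4ha1 was at 24.7 ± 5.68 CPM in D80 wild-type and 41.6 ± 1.80 CPM in D80 transgenic libraries (log2 difference 0.75 with SE 0.15, adjusted p = 0.0026). The lysyl hydroxylase Plod2, which directs crosslink chemistry, was at 11.2 ± 2.14 and 29.4 ± 4.49 CPM (log2 difference 1.39 with SE 0.24, adjusted p = 0.00095). Lepre1, the table's symbol for the prolyl 3-hydroxylase P3h1, differed by 1.08 (SE 0.23, adjusted p = 0.0036), and Leprel1, its symbol for P3h2, by -1.65 (SE 0.28, adjusted p = 0.00086).

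Of the genes for propeptide cleavage and crosslinking, 4 of 12 were higher and none lower, with a median of 0.66, so that fewer were called either way than the 41.3% of all genes. The procollagen proteinases Bmp1 and Adamts2, which trim the C and N propeptides, differed by 1.23 (SE 0.28, adjusted p = 0.0051) and 1.40 (SE 0.36, adjusted p = 0.0091). The lysyl oxidase relatives Loxl1 and Loxl3 differed by 0.99 (SE 0.30, adjusted p = 0.019) and 0.98 (SE 0.35, adjusted p = 0.042). The degradation list holds proteases and also their inhibitors Timp1, Timp2 and Timp3, and 7 of its 10 tested genes were higher and 1 lower at D80 (against 19.4% and 22.0%), with a median of 2.01 over both kinds. Of the inhibitors, 1 was higher (Timp1), 1 lower (Timp3) and 1 not called (Timp2), named for their function after their values were seen. Mmp13, a collagenase, was at 1.73 ± 0.777 CPM in D80 wild-type and 30.5 ± 9.88 CPM in D80 transgenic libraries (log2 difference 4.14 with SE 0.51, adjusted p = 9.9e-05), and it was already called at D60 (log2 difference 2.22 with SE 0.55, adjusted p = 0.047). The gelatinases Mmp2 and Mmp9 differed by 1.65 (SE 0.34, adjusted p = 0.0031) and 2.93 (SE 0.55, adjusted p = 0.0016), and the collagen-cleaving cathepsin Ctsk by 2.12 (SE 0.37, adjusted p = 0.0010). Neutrophil markers, 6 genes, were at 11.3 to 110.3 summed CPM in D80 transgenic and 0.618 to 1.43 in D80 wild-type libraries beside these proteases.

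Of 9 collagen receptors tested, 3 were higher and 4 lower at D80, against 19.4% and 22.0% of all genes, with a median of -0.14. The integrin chain Itga1, which pairs with Itgb1 to bind collagen, was at 74.3 ± 4.84 CPM in D80 wild-type and 36.6 ± 1.70 CPM in D80 transgenic libraries (log2 difference -1.02 with SE 0.14, adjusted p = 0.00020). Itgb1 differed by -0.50 (SE 0.12, adjusted p = 0.0074) and the collagen-binding kinase Ddr2 by -1.40 (SE 0.28, adjusted p = 0.0026), while the collagen uptake receptor Mrc2 was higher (log2 difference 1.63 with SE 0.40, adjusted p = 0.0072). Of 11 proteoglycans and glycoproteins of fibrils, 4 were higher and 3 lower, against the same shares, with a median of 0.61. Thbs2, a matricellular protein, was at 5.87 ± 2.01 and 68.5 ± 24.5 CPM in D80 wild-type and transgenic libraries (log2 difference 3.54 with SE 0.32, adjusted p = 1.0e-05), and the proteoglycan Bgn at 177 ± 31.9 and 499 ± 67.7 CPM (log2 difference 1.497 with SE 0.35, adjusted p = 0.0054). The small proteoglycan Ogn and the tenascin Tnxb were lower, by -2.05 (SE 0.24, adjusted p = 6.7e-05) for Ogn and -1.58 (SE 0.31, adjusted p = 0.0022) for Tnxb. Of 15 other basement membrane genes 2 were higher and 1 lower, a smaller share than the 41.3% of all genes called, with a median of 0.14: Nid2, a linker of laminin and type IV networks, by 2.14 (SE 0.27, adjusted p = 0.00011), the laminin chain Lama1 by 2.97 (SE 0.49, adjusted p = 0.00076), and the epithelial laminin chain Lamb3 by -1.03 (SE 0.27, adjusted p = 0.010). Of these lists, those of degradation and of fibril partners each had 1 gene called at D60, Mmp13 and Thbs2, and the other 4 had none.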

How the data were processed

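RNA of 12 pylorus samples was made into libraries with a TruSeq stranded mRNA kit, per the labels' protocols. The submitters' processing notes list the mouse build mm10, STAR 2.5.3a, HTSeq 0.9.1 and edgeR 3.16.5. Neither the annotation nor the strand setting of the counting is stated there or in the labels. The authors deposited raw gene counts for 23420 genes, and their normalized table was not used. Molecular identifiers are not mentioned, so intervals cover counting error only. The transgene's own sequence was not analysed here.

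Counts were fitted with edgeR 4.0.16 (R 4.3.3) in one quasi-likelihood model of the 4 groups with TMM factors, 8 residual degrees of freedom and the filterByExpr filter, which left 15369 genes. The biological coefficient of variation was 24.2%. Contrasts were genotype at each age, age in each genotype and their interaction. DESeq2 1.42.0, limma-voom (limma 3.58.1), other scalings, other filters, a replicate block and left-out libraries served as alternatives. Col1a1, Col1a2 and Col3a1 together took 39.6% to 59.2% of the counts of the 38 collagen genes in each library. Lengths and positions come from GENCODE annotation of GRCm38, and promoters from RefSeq.

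The genes and lists were chosen with earlier results of these data known. Values in every library are given for collagen genes that passed a genotype or interaction test with a group mean of at least 5 CPM (up to 20, by adjusted p at D80) and for 9 set chains whatever their p, and up to 4 genes per companion list are named by p. In counts simulated on the 15369 genes for the D80 comparison the test called 46.9% of 2-fold and 87.8% of 4-fold changes, with 3 false calls. At D60 it called 36.7% and 80.0%. Few genes were changed in the simulation: for the D80 comparison 98 by 2-fold and 98 by 4-fold, against 6354 genes called in the data. The adjusted threshold is less strict where more genes change, so these rates and false calls do not carry over to the data.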

Additional observations from a re-analysis of the deposited data

Results flagged for a closer look

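For 3 collagen genes the genotype difference at D80 departed from that at D60 by the interaction test of edgeR (quasi-likelihood, adjusted over 15369 genes). Of the 38 genes 5.26% were called higher and 2.63% lower, against 2.77% and 2.23% of all genes tested. Col9a2 differed by 2.68 on the log2 scale (SE 0.43, adjusted p = 0.0096), and all 3 D80 transgenic libraries were above every other library. Col12a1 differed by 1.98 (SE 0.38, adjusted p = 0.015), with genotype differences of -0.58 at D60 and 1.40 at D80. Its call was lost without D60 transgenic replicate 3. Col4a6 differed by -2.15 (SE 0.55, adjusted p = 0.047), with genotype differences of -0.05 at D60 and -2.20 at D80, and over its alternatives the adjusted p ran from 0.0045 to 0.13. The interaction includes the D60 genotype difference, in which genotype coincides with sex, so that the 2 cannot be told apart in these values.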

How the results depend on the processing

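No collagen gene changed direction while called. Of 23 genes called at D80, 15 kept their call in all 22 alternatives, and both D60 calls did. Of 22 calls by age in transgenic mice 18 were kept, and of 3 interaction calls 1, Col9a2. Col10a1, kept only through its transgenic counts, is among the calls kept at D60, at D80 and by age, and its calls are no support. The D80 count of lower genes was 3 with upper-quartile factors and 2 with library totals, and 2 to 6 with 1 library left out, while the higher count was 15 to 23. By age in transgenic mice the lower count was 0 with library totals, 1 with the replicate block and 0 to 4 with 1 library left out. The interaction count was 6 higher and 2 lower with DESeq2, 0 lower with RLE, upper-quartile or library-total scaling, the replicate block or limma-voom, and 1 to 8 higher and 0 to 1 lower with 1 library left out. By age in wild-type mice it was 1 higher with DESeq2 and 0 to 1 with 1 library left out. With few exceptions the calls over all genes are not given for these settings, so the counts describe collagen genes alone. The cause of these changes was not tested.

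Library totals moved the median of all genes at D80 from -0.07 to 0.34, by age in transgenic mice from 0.02 to 0.39 and in the interaction from -0.06 to 0.25, and upper-quartile factors gave 0.08 at D80 and 0.12 by age in transgenic mice. At D80 all genes split into 2974 higher and 3380 lower, and with library totals into 5104 and 1001. Collagen genes split into 18 and 5, and with library totals into 21 and 2. In D80 transgenic libraries the basement membrane sum was 1742 CPM with upper-quartile factors and 2023 with library totals, which also gave 5270.1 for fibrillar, 319 for FACIT and 629.6 for other chains, and 74.7 for FACIT in D60 wild-type. With type IV alone as basement membrane, its sum was 493, 556 and 1110.5 CPM in D60 wild-type, D80 wild-type and D80 transgenic libraries, and its share 24.4%, 18.9%, 19.7% and 16.8% in D60 wild-type, D80 wild-type, D60 transgenic and D80 transgenic libraries. The other class was then 451, 680.4, 541 and 1022 CPM, or 21.7%, 23.1%, 20.9% and 15.5%, in the same order.

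Same-numbered libraries did not deviate together (18 pairs, mean correlation -0.004, range -0.34 to 0.39), so the numbers were not taken to pair them. The replicate block left the D80 counts at 18 and 5, and moved the interaction's lower count from 1 to 0. Scaling by the length of the glycine repeat was not run. Col4a3, Col4a4 and Col7a1 rest on few counts.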
